A study of Mus musculus with 22 samples.

Results

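The genes described here encode the mitochondrial enzymes that oxidise fatty acids and feed and run the tricarboxylic acid (TCA) cycle. They were listed by enzyme name and not by a threshold on any measured value, with earlier results of these data known, and are 37 of the 30170 genes in the table: 21 genes of beta-oxidation, from the carnitine shuttle to the electron transfer flavoprotein, and 16 genes that lead from pyruvate through the TCA cycle. RNA was sequenced from an established line of mouse mesenchymal cells with adipogenic capacity, C3H 10T1/2, made to express DNMT3A1 as WT, as the W330R mutant or as the double mutant W330R-R181E. WT and W330R were sampled undifferentiated (undiff) and on days 2, 4 and 6 of adipocyte differentiation, and W330R-R181E on days 2, 4 and 6 only, with 2 libraries in each of the 11 conditions. Differentiating cells of all 3 genotypes received the same treatment: isobutylmethylxanthine (0.5 mM), dexamethasone (1 µM), insulin (5 µg/mL) and troglitazone (5 µM) for the opening 2 days, and insulin alone after that. For the double mutant the labels read R181E and the 6 column names R181A. They do not say whether libraries with the same labels came from separate cultures or from several lines, so p-values measure only the spread between these libraries, and a genotype and the line that carries it cannot be told apart.

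Mitochondrial beta-oxidation shortens a fatty acid by a pair of carbons per turn. The acyl group enters the matrix on carnitine, passes an acyl-CoA dehydrogenase, a hydratase, a hydroxyacyl-CoA dehydrogenase and a thiolase, and leaves as acetyl-CoA, while the electron transfer flavoprotein carries the electrons to the respiratory chain. The TCA cycle burns that acetyl-CoA together with acetyl-CoA made from pyruvate by the pyruvate dehydrogenase complex. Adipocytes are known for storing fat, and during their differentiation the mitochondria expand as well, since citrate made in the TCA cycle supplies carbon for fatty acid synthesis.

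All 37 genes passed the filter on low counts, which kept 14520 genes. The libraries held 8859501 to 47453908 counts. The level used below is CPM, a count scaled to library size with TMM factors, and a gene is called where edgeR's quasi-likelihood test gave a Benjamini-Hochberg adjusted p under 0.05 over all 14520 genes. Dnmt3a, the gene whose protein was varied, had 317 to 347 CPM in the 4 undiff libraries and 68.5 to 322 CPM later, and these counts cannot tell an introduced copy from the cell's own. Adiponectin (Adipoq), an adipocyte marker, was at most 0.898 CPM in undiff cells and reached 15.6 to 1296 CPM on days 2 to 6. Eci1, an enoyl-CoA isomerase, had no counts in 17 of the 22 libraries, 1 to 74 counts in 4 and 156 counts in 1 W330R day 4 library, and no fold change is given for it, which leaves 36 genes for medians. The undiff libraries carry column names of another pattern than the rest, so a step from undiff to day 2 cannot be told apart from a batch.

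Promoters of all members with a window, whatever their change, were searched for 3 motifs on both strands of RefSeq windows (GRCm38.p6, 250 bases before to 50 after a start; 37 windows for 32 members). A direct repeat of AGGTCA with 1 base between the copies, the kind of site that PPAR-RXR binds, was counted with up to 2 mismatches in 5 of the 37 windows (13.5%) and in 3.86% of all 32851 windows: those of Slc25a20, Echs1, Etfa, Idh3b and Sucla2. The NRF1 core CGCATGCG was found in 4 windows (10.8%, of Acadm, Etfdh and Ogdh) against 1.87% of all. The Ogdh windows with this core overlap and hold the same site, so the core was found in 3 of the 32 members. TCAAGGTCA, an oestrogen-related receptor site, was found with up to 1 mismatch in 1 window (2.70%, of Ogdh) against 7.46%. AGGTCA lies within TCAAGGTCA, so these motifs overlap. Below are the 200 bases before the start of Acadm and Dlat, the members with the lowest fold changes between W330R and WT of the beta-oxidation and pyruvate lists, and of Etfa. Capitals mark the NRF1 core in Acadm (chr3:153944644-153944843, minus strand) and the direct repeat, read on the other strand, in Etfa (chr9:55512244-55512443, minus strand), and Dlat (chr9:50659781-50659980, minus strand) holds none of the 3.
Acadm: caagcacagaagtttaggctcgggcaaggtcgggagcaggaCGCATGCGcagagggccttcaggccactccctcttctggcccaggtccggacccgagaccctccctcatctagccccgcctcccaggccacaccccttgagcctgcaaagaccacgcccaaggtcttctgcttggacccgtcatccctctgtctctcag
Etfa: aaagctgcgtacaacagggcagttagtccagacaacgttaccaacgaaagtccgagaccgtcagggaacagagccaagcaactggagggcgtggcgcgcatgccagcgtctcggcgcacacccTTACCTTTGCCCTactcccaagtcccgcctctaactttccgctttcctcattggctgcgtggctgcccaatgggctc
Dlat: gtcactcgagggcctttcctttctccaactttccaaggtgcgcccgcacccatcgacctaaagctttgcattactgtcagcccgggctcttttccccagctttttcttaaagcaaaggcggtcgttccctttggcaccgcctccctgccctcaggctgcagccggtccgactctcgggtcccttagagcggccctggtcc
A match describes letters and not a bound site.

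From undiff to day 2 nearly the whole group was higher. In WT, 32 of 37 genes rose and 1 fell, where 50.9% of all genes were called, and the median log2 fold change was 1.41 against 0.06 over all genes. In W330R, 30 rose and none fell, where 48.2% of all genes were called, with a median of 1.00. Acadm, the medium-chain acyl-CoA dehydrogenase, went in WT from 112 and 119 CPM to 929 and 1153 CPM, a log2 fold change of 3.17 (SE 0.36, edgeR adjusted p = 7.59e-06). In W330R it went from 159 and 159 CPM to 621 and 468 CPM (1.78, SE 0.34, edgeR adjusted p = 7.51e-04). In both genotypes the day 2 libraries of Acadm lay far above the undiff ones.

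The gene that fell was Cpt1a, the carnitine palmitoyltransferase that admits long-chain fatty acids to the mitochondrion. It had 95.5 and 97.0 CPM in undiff WT cells and 48.9 and 36.4 CPM on day 2 (log2 fold change -1.18, SE 0.19, edgeR adjusted p = 1.49e-04). In W330R it had 109 and 111 CPM and then 95.1 and 73.6 CPM, which did not pass (-0.38, SE 0.19, edgeR adjusted p = 0.102). The difference between these steps was 0.79 (SE 0.26) and did not pass either (edgeR adjusted p = 0.157). None of the 37 genes passed edgeR's test of that difference, where 1.87% of all genes did. Of the 37, 5 had an unadjusted p under 0.05.

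From day 2 to day 6 within WT, a few members changed. In every genotype this span also covers the change to insulin alone, so time and that change cannot be told apart. Of the 37 genes, 3 rose and 1 fell (10.8%), below the 26.6% of all genes called, and the median log2 fold change was 0.20. The fit with the replicate block called 8, 6 higher and 2 lower, adding Cpt1a, Acat1 and Suclg1 (higher) and Pdha1 (lower), and DESeq2 called 7. Acads, the short-chain acyl-CoA dehydrogenase, had 50.5 and 69.8 CPM on day 2, 99.2 and 142 CPM on day 4 and 125 and 173 CPM on day 6 (1.31, SE 0.26, edgeR adjusted p = 0.00275). Hadh, the short-chain hydroxyacyl-CoA dehydrogenase, had 104 and 74.3 CPM on day 2, 176 and 211 CPM on day 4 and 187 and 239 CPM on day 6 (1.26, SE 0.20, edgeR adjusted p = 4.78e-04). Cpt2, which takes the acyl group off carnitine on the matrix side, had 105 and 101 CPM on day 2, 159 and 173 CPM on day 4 and 148 and 187 CPM on day 6 (0.70, SE 0.12, edgeR adjusted p = 7.16e-04). For all 3 the day 6 libraries lay above both day 2 libraries. Hsd17b10, a hydroxyacyl-CoA dehydrogenase with a further part in mitochondrial tRNA processing, went the other way, from 175 and 170 CPM to 104 and 118 CPM (-0.64, SE 0.16, edgeR adjusted p = 0.0083).

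The step from day 2 to day 4 in WT had 4 genes called (10.8%), all higher. That equals the share of all genes called, 10.8% (6.62% higher, 4.16% lower). From day 4 to day 6 edgeR called none of the 37 (3 at an unadjusted p under 0.05; DESeq2 called 1), where 0.324% of all genes were called. On days 4 and 6, replicate 2 of WT was above replicate 1 by a median over the members of 0.45 and 0.46 on the log2 scale. Without WT day 2 replicate 2, WT day 2 replicate 1 or WT day 4 replicate 2, the count for day 4 against day 2 was 1, 2 and 2.

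**Figure D1:**
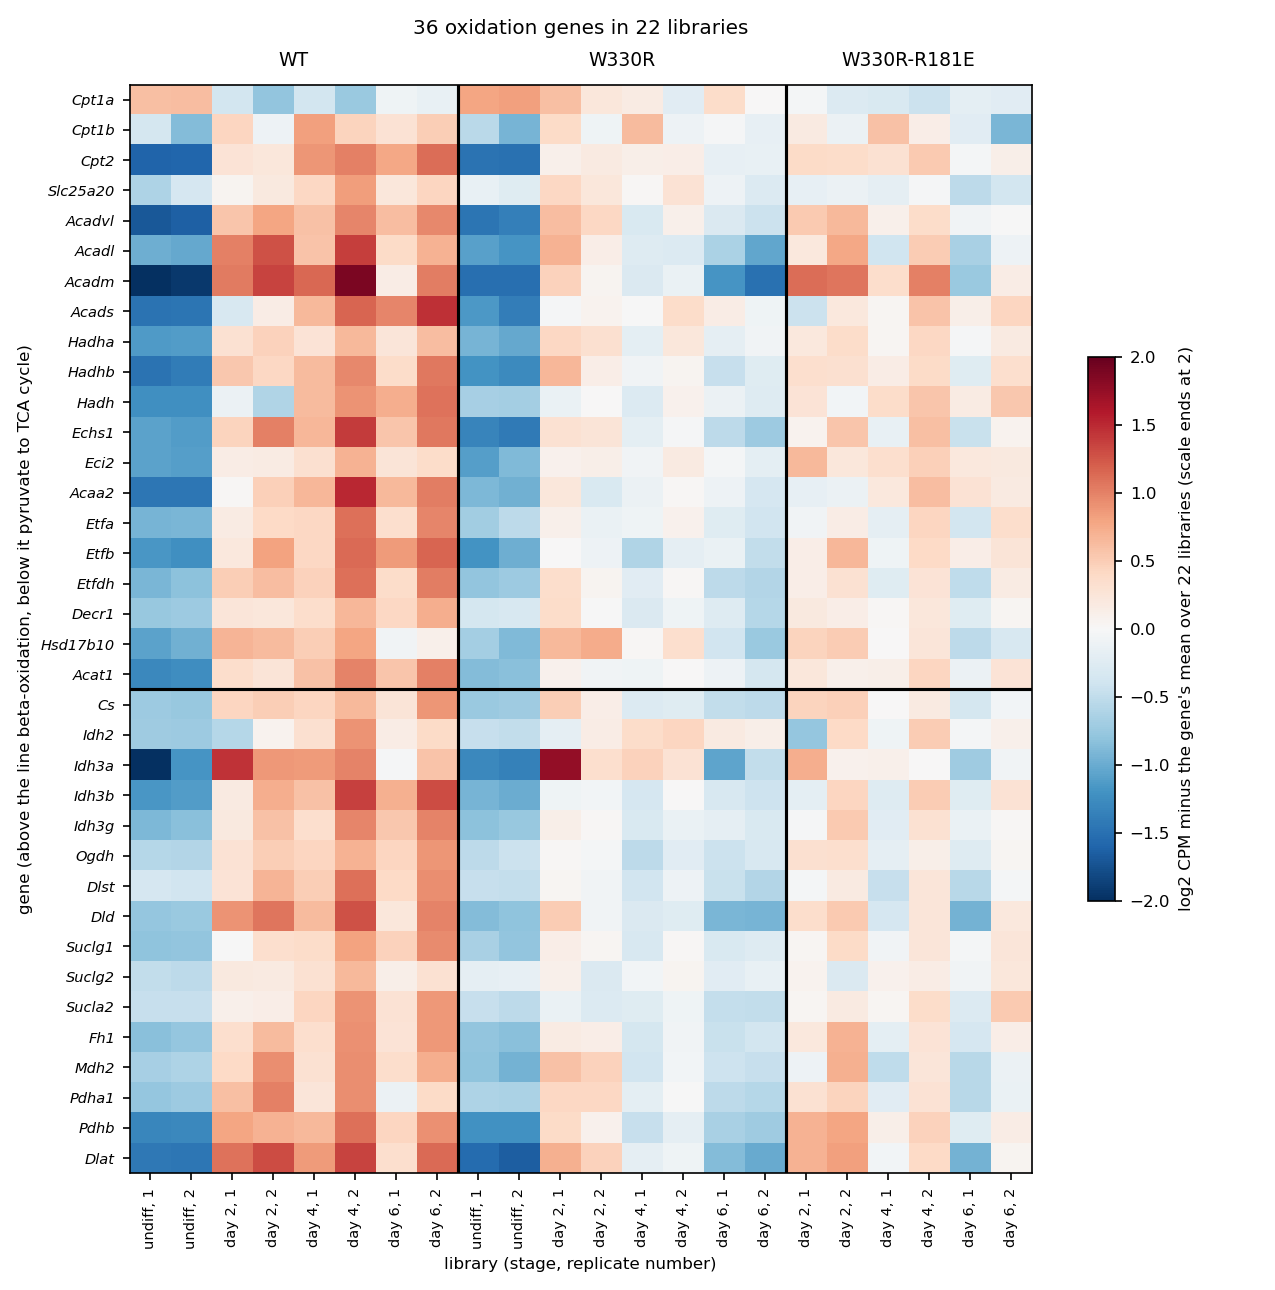
Heat map of 36 genes (rows) in 22 libraries (columns, by genotype, stage and replicate number), coloured by log2 CPM minus the gene's mean over the libraries. The undiff columns are blue for nearly every gene but Cpt1a, WT is mostly red on days 2 to 6, and W330R turns from mostly red on day 2 to mostly blue on day 6.

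Between W330R and WT over days 2, 4 and 6, most of the enzymes were lower in W330R. Of the 37 genes, 33 were called, 32 lower and 1 higher, where 29% of all genes were called (14.8% lower and 14.3% higher). The median log2 fold change was -0.69, against 0.02 over all genes. By list, 18 beta-oxidation genes were lower and 1 higher, with a median of -0.67, and 14 of the 16 pyruvate and TCA genes were lower, with a median of -0.75. The 6 W330R libraries lay below all 6 WT libraries for 14 genes and above them for none, where 2.52% of all genes lay below without overlap. The count was 29 to 34 when any 1 library was left out, and DESeq2 and a fit with the replicate number as a block called the same 33 genes. The averaged tests treat the 6 libraries of a genotype as independent. Same-numbered libraries of a genotype deviated together across days, with correlations of 0.30 to 0.44 in WT, 0.13 to 0.34 in W330R and 0.10 to 0.46 in W330R-R181E. The block is shared by all genotypes. P-values of comparisons averaged over days may therefore be too small.

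In the carnitine shuttle, the members differed in direction. Cpt2 had 101, 154 and 187 CPM (lowest, median and highest of 6 libraries) in WT and 77.5, 93.1 and 98.3 CPM in W330R. These ranges did not overlap, and the log2 fold change was -0.68 (SE 0.07, edgeR adjusted p = 2.2e-05). Cpt1a had 36.4, 48.8 and 59.3 CPM in WT and 53.9, 72.2 and 95.1 CPM in W330R, ranges that overlap, and was higher in W330R by 0.61 (SE 0.11, edgeR adjusted p = 0.00101). On each of days 2, 4 and 6 both W330R libraries of Cpt1a were above both WT libraries of the same day.

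Slc25a20, the carrier that exchanges acylcarnitine for carnitine across the inner membrane, had 28.4, 34.2 and 48.8 CPM in WT and 22.6, 29.9 and 36.7 CPM in W330R, ranges that overlap. Its log2 fold change of -0.26 (SE 0.09, edgeR adjusted p = 0.0451) passed in 8 of 18 alternative fits. Cpt1b, the muscle form of the palmitoyltransferase, had 5.81 to 11.1 CPM in WT and 5.54 to 9.67 CPM in W330R and was not called (-0.29, SE 0.19, edgeR adjusted p = 0.28). Of its sequences of 50 bases, 78.6% also belong to the overlapping gene Gm44502, so its counts are uncertain.

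All 4 acyl-CoA dehydrogenases, which take the opening step of each turn for chains of different length, were lower in W330R. Acadm had 504, 964 and 1672 CPM in WT and 161, 392 and 621 CPM in W330R. The W330R library with most Acadm overlapped the lowest WT library, which came from day 6, while on each single day the genotypes did not overlap. Its log2 fold change of -1.56 (SE 0.20, edgeR adjusted p = 1.07e-04), a level 2.95 times lower, was the lowest of the 36. Acadl, for long chains, had 210, 292 and 421 CPM against 78.1, 134 and 261 CPM (-1.13, SE 0.19, edgeR adjusted p = 7.14e-04). Acadvl, for very long chains, had 282, 315 and 381 CPM against 143, 183 and 295 CPM (-0.73, SE 0.10, edgeR adjusted p = 1.93e-04). Both pairs of ranges overlapped through a day 2 library of W330R. Acads was lower by less (-0.62, SE 0.15, edgeR adjusted p = 0.00735).

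All 7 genes of the later steps were lower too, with log2 fold changes from -1.04 to -0.33. The lowest was Echs1, the short-chain enoyl-CoA hydratase, with 146, 191 and 281 CPM in WT and 64.5, 98.7 and 131 CPM in W330R, ranges that do not overlap. Hadha and Hadhb encode the alpha and beta subunits of the trifunctional protein, which performs the last 3 steps on long chains. Hadha had 394, 437 and 525 CPM in WT and 292, 354 and 446 CPM in W330R (-0.34, SE 0.10, edgeR adjusted p = 0.0241; passed in 10 of 18 alternative fits), and Hadhb had 207, 241 and 332 CPM and 116, 160 and 254 CPM (-0.66, SE 0.13, edgeR adjusted p = 0.00249). Both pairs of ranges overlap. Of the Hadhb sequences, 19.7% are found in other genes as well. Exons of 7 members (Acadvl, Hadha, Echs1, Eci2, Etfdh, Idh3b and Pdha1) overlap a gene on the opposite strand, and whether the counting used strand is not given in the sources used here.

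The remaining members of this list were Acaa2, a thiolase (-0.85), Acat1, the acetoacetyl-CoA thiolase (-0.72), Hadh (-0.56) and Hsd17b10 (-0.33), all called. The auxiliary enzymes for unsaturated chains, Decr1 and Eci2, were lower by 0.58 and 0.31 on the log2 scale, and Eci2 passed in 14 of 18 alternative fits.

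The 3 genes of electron transfer to the respiratory chain were lower. Etfdh, the oxidoreductase that passes electrons to ubiquinone, had 99.2, 114 and 165 CPM in WT and 51.4, 72.0 and 98.5 CPM in W330R, with no overlap (-0.85, SE 0.15, edgeR adjusted p = 0.00106). Etfb, the beta subunit of the flavoprotein, had 109, 168 and 212 CPM and 62.4, 84.4 and 94.9 CPM, again with no overlap (-1.03, SE 0.16, edgeR adjusted p = 3.69e-04). Of the Etfb sequences, 44.8% also occur in other genes, mostly in the overlapping Gm45233. Etfa, whose promoter is printed above, was lower by 0.70 on the log2 scale (SE 0.16, edgeR adjusted p = 0.00545).

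**Figure D2:**
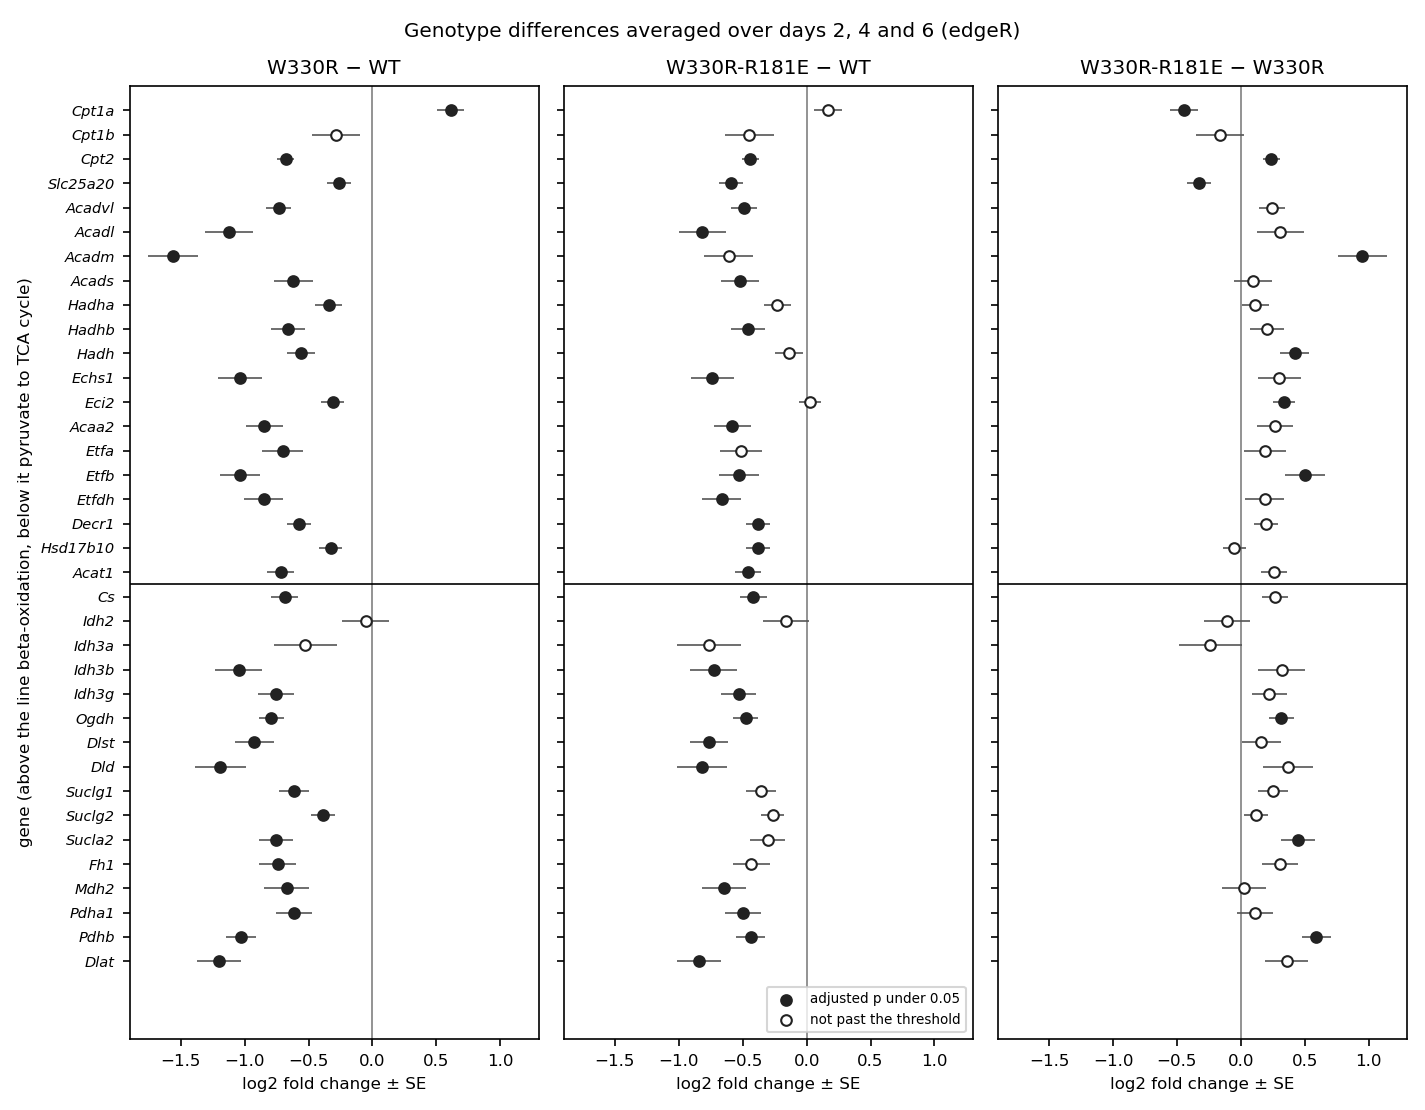
Log2 fold change with its standard error for 36 genes, averaged over days 2, 4 and 6, in the 3 genotype comparisons. Filled points passed the test: 33 lie off 0 for W330R against WT, all but Cpt1a to the left, 23 for W330R-R181E against WT and 10 for W330R-R181E against W330R.

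The pyruvate dehydrogenase complex was among the groups with the lowest fold changes. Dlat, its E2 acetyltransferase, had 224, 382 and 452 CPM in WT and 87.4, 161 and 290 CPM in W330R (-1.20, SE 0.17, edgeR adjusted p = 2.41e-04). Pdhb, the beta subunit of E1, had 264, 330 and 422 CPM and 120, 158 and 257 CPM, with no overlap (-1.03, SE 0.12, edgeR adjusted p = 5.14e-05). Pdha1, the alpha subunit of the same E1, had 510, 779 and 1113 CPM and 373, 515 and 738 CPM, with overlap (-0.61, SE 0.14, edgeR adjusted p = 0.00494). Dld, the E3 subunit that this complex shares with 2-oxoglutarate dehydrogenase, had 321, 526 and 661 CPM and 144, 227 and 389 CPM (-1.19, SE 0.20, edgeR adjusted p = 7.01e-04). Levels of Dlat and Dld overlapped only where WT day 6 met W330R day 2.

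Within the cycle itself, most steps were lower by a similar amount. Cs, citrate synthase, had 654, 758 and 1018 CPM in WT and 383, 459 and 776 CPM in W330R (-0.68, SE 0.11, edgeR adjusted p = 4.01e-04), with overlap through W330R day 2. Ogdh, the E1 of 2-oxoglutarate dehydrogenase, had 287, 322 and 431 CPM and 163, 194 and 238 CPM, with no overlap (-0.79, SE 0.10, edgeR adjusted p = 8.88e-05). Its E2, Dlst, was lower by 0.92 on the log2 scale, Fh1 (fumarase) by 0.74 and Mdh2 (malate dehydrogenase) by 0.67, all called.

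Of the succinyl-CoA ligase genes, Sucla2, the ATP-forming beta subunit, had 143, 172 and 250 CPM in WT and 95.3, 112 and 126 CPM in W330R, with no overlap (-0.75, SE 0.14, edgeR adjusted p = 0.00113). Suclg2, the GTP-forming one, had 71.8, 78.4 and 103 CPM and 53.7, 61.5 and 71.0 CPM, also with no overlap but closer (-0.39, SE 0.09, edgeR adjusted p = 0.0061). The log2 ratio of Suclg2 to Sucla2 counts was -1.18 and -1.58 in WT day 6 libraries and -0.76 and -0.68 in those of W330R. In undiff cells it was already apart, at -1.05 and -1.08 in WT and -0.75 and -0.65 in W330R. On day 2 the genotypes overlapped (-0.93 and -0.98 in WT, -0.78 and -1.04 in W330R). That ratio is not corrected for length, and 16% of the Suclg2 sequences are found in Gm15163.

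The isocitrate dehydrogenases behaved differently from each other. Idh3b and Idh3g, regulatory subunits of the NAD-dependent enzyme, were lower by 1.05 and 0.75 on the log2 scale, both called and both without overlap. Idh3a, its catalytic subunit, had 38.1, 71.0 and 106 CPM in WT and 18.8, 48.4 and 132 CPM in W330R and was not called (-0.53, SE 0.25, edgeR adjusted p = 0.125). Its W330R day 2 replicates, at 132 and 49.1 CPM, were the furthest apart of the 36 genes in that condition. Idh2, the NADP-dependent mitochondrial enzyme, had 166, 289 and 456 CPM and 216, 274 and 329 CPM, the W330R range lying within that of WT (-0.05, SE 0.18, edgeR adjusted p = 0.863).

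The number of genes called between W330R and WT differed by stage, which does not itself test a change between stages. Tests of such a change passed for none of the 37 genes from undiff to day 2. From day 2 to day 6 they passed for Cpt2 only. In undiff cells edgeR called none of the 37 genes (3 at an unadjusted p under 0.05; DESeq2 also called none), where 1.75% of all genes were called (0.792% higher, 0.957% lower), and the median log2 fold change was 0.12. On day 2 it called only Cpt1a, higher in W330R by 0.99 (SE 0.19, edgeR adjusted p = 0.0139), where 3.06% of all genes were called (1.88% higher, 1.18% lower), and the median was -0.28. That call was lost without WT day 2 replicate 2 or W330R day 2 replicate 1, which left 0. On day 4, 20 genes were lower, where 6.14% of all genes were called (2.73% higher, 3.4% lower), with a median of -0.85. On day 6, 26 were lower, where 7.54% of all genes were called (2.31% higher, 5.23% lower), with a median of -1.06. Both W330R libraries lay below both WT libraries for 20 of 36 genes on day 2, 33 on day 4 and 34 on day 6, where 20.6%, 24.8% and 26.4% of all genes did so. In undiff cells both W330R libraries lay above both WT libraries for 22 of 36 genes and below them for 6. Of all genes, 30.1% lay above and 32.3% below there.

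The single-day counts rested on few libraries. On day 4 the count was 1 without WT replicate 2, 0 without W330R replicate 1 and 4 without W330R replicate 2. On day 6 it was 4 without WT replicate 2, 9 without W330R replicate 1 and 3 without W330R replicate 2, and a fit of only the 4 libraries of the day called none on either. The medians kept their sign in all of these fits.

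The undiff comparison depended on which libraries set the spread. The biological coefficient of variation was 0.243 over all 22 libraries and 0.0463 over the 4 undiff libraries. Fitted alone, those 4 gave 17 called of 36 genes, 15 higher and 2 lower in W330R, where 35.3% of all genes were called (17.2% higher, 18% lower). Of beta-oxidation genes 11 were higher, among them Hadh with 48.3 and 48.3 CPM in WT and 71.2 and 70.3 CPM in W330R (log2 fold change 0.56, SE 0.05, edgeR adjusted p = 1.31e-04), and Acadm, given above (0.47, SE 0.04, edgeR adjusted p = 1.45e-04). Echs1 and Mdh2 were the 2 lower genes. The median over the 36 genes was 0.12 in this fit.

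**Figure D3:**
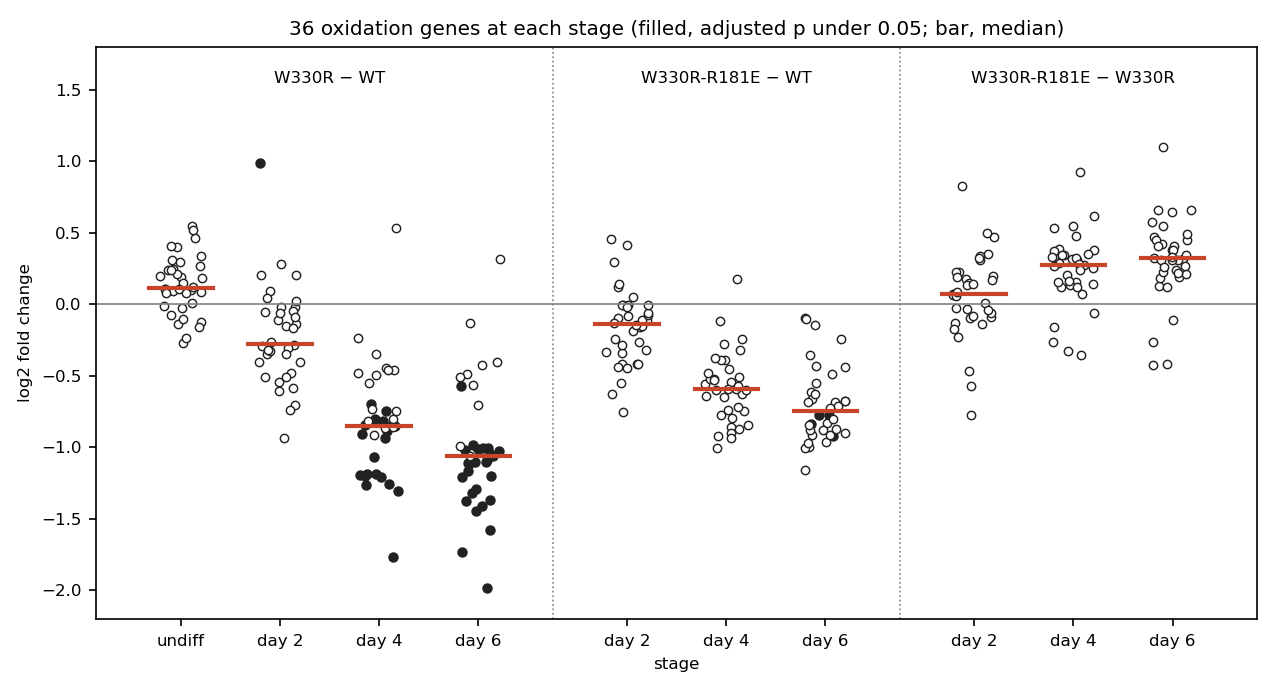
Log2 fold change of 36 genes at each stage in the 3 genotype comparisons; each point is a gene, filled where it passed the test, and the bar is the median. For W330R against WT the median goes from 0.12 in undiff cells to -0.28, -0.85 and -1.06 on days 2, 4 and 6, and for W330R-R181E against WT from -0.14 to -0.59 and -0.75.

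The double mutant W330R-R181E addresses whether a further change in W330R alters its effect. Against W330R over days 2 to 6, 8 of the 37 genes were higher and 2 lower, where 17.2% of all genes were called (7.87% higher, 9.36% lower), and the median log2 fold change was 0.24. Acadm had 270, 744 and 983 CPM in the double mutant and 161, 392 and 621 CPM in W330R, overlapping across days but not on any single day (0.95, SE 0.19, edgeR adjusted p = 0.00425). Pdhb had 167, 245 and 341 CPM and 120, 158 and 257 CPM (0.59, SE 0.11, edgeR adjusted p = 0.00322), also without overlap on any single day.

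Etfb was higher by 0.50, Sucla2 by 0.45, Hadh by 0.42, Eci2 by 0.34, Ogdh by 0.32 and Cpt2 by 0.24 on the log2 scale. The genes that were lower both belong to the carnitine shuttle. Cpt1a had 46.7, 53.1 and 61.6 CPM in the double mutant and 53.9, 72.2 and 95.1 CPM in W330R (-0.45, SE 0.11, edgeR adjusted p = 0.0115). Slc25a20 had 19.1, 24.2 and 27.0 CPM and 22.6, 29.9 and 36.7 CPM (-0.33, SE 0.09, edgeR adjusted p = 0.025). Both were lower in the double mutant on each day, with no overlap within a day. Acadm, Pdhb and Cpt1a passed in 18 of 18 alternative fits, Eci2 in 15, Hadh in 12 and the others in 6 to 10.

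The count of 10 rested on several libraries. It was 4 without W330R day 2 replicate 1, W330R day 4 replicate 1, W330R day 6 replicate 2 or W330R-R181E day 4 replicate 2, 5 without W330R day 6 replicate 1 or W330R-R181E day 6 replicate 2, and 6 without W330R-R181E day 2 replicate 2. On single days edgeR called none of the 37 on day 2, 4 or 6, where 2.67%, 1.91% and 1.5% of all genes were called (0.964%, 0.565% and 0.565% higher; 1.7%, 1.35% and 0.937% lower), and 5 on each day had an unadjusted p under 0.05. The fit with the replicate block called 1 on day 2, Cpt1a, and DESeq2 called 0, 0 and 2.

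Against WT over days 2 to 6, W330R-R181E had 23 of the 37 genes lower and none higher, where 9.57% of all genes were called (4.46% higher, 5.12% lower), and the median was -0.48. This comparison shares its WT libraries with that of W330R, so the values are given side by side. Dlat was at -0.84 (SE 0.17) here and -1.20 in W330R, Dld at -0.82 (SE 0.20) and -1.19, and Acadl at -0.82 (SE 0.19) and -1.13, all called. Acadm was at -0.61 (SE 0.19, edgeR adjusted p = 0.0608) here and Cpt1a at 0.17 (SE 0.11, edgeR adjusted p = 0.343), neither called. With the replicate block Acadm passed (edgeR adjusted p = 0.0294), and DESeq2 called it too, while Cpt1a passed in neither. Slc25a20 was at -0.59 (SE 0.09, edgeR adjusted p = 0.00293), against -0.26 in W330R, and its 6 libraries lay below all of those of WT.

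None of the 3 succinyl-CoA ligase genes passed against WT (Sucla2 -0.30, Suclg2 -0.27, Suclg1 -0.36). All of the pyruvate dehydrogenase and 2-oxoglutarate dehydrogenase genes did, but this contrast lies near the threshold. Pdhb and Pdha1 passed at edgeR adjusted p = 0.0305 and 0.0389, and Suclg1 missed at 0.0664. With the replicate block Suclg1 passed too (edgeR adjusted p = 0.0167), and DESeq2 called Suclg1 and Suclg2. The count was 6 without WT day 4 replicate 2, WT day 6 replicate 2 or W330R-R181E day 4 replicate 1, 7 without W330R-R181E day 6 replicate 1, and 8 without WT day 2 replicate 2 or W330R-R181E day 2 replicate 1. A fit of days 2 to 6 alone called 12 and one of only the conditions compared called 1.

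On single days against WT, edgeR called none of the 37 on day 2 or day 4, where 0% of all genes were called on both, and 2 and 28 had an unadjusted p under 0.05. DESeq2 called 0 and 2. On day 6, edgeR called 4, where 0.875% of all genes were called (0.158% higher, 0.716% lower): Cpt2 (-0.92, SE 0.12, edgeR adjusted p = 0.00393), Acadvl (-0.84), Slc25a20 (-0.77) and Ogdh (-0.78). The fit with the replicate block called 17 on day 6 and DESeq2 called 15, all lower. The count was 9 without WT day 6 replicate 1, 0 without WT day 6 replicate 2 or W330R-R181E day 6 replicate 1, and 2 without W330R-R181E day 6 replicate 2. Both double mutant libraries lay below both WT libraries for 33 of 36 genes on day 6, where 21.2% of all genes did so.

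**Figure D4:**
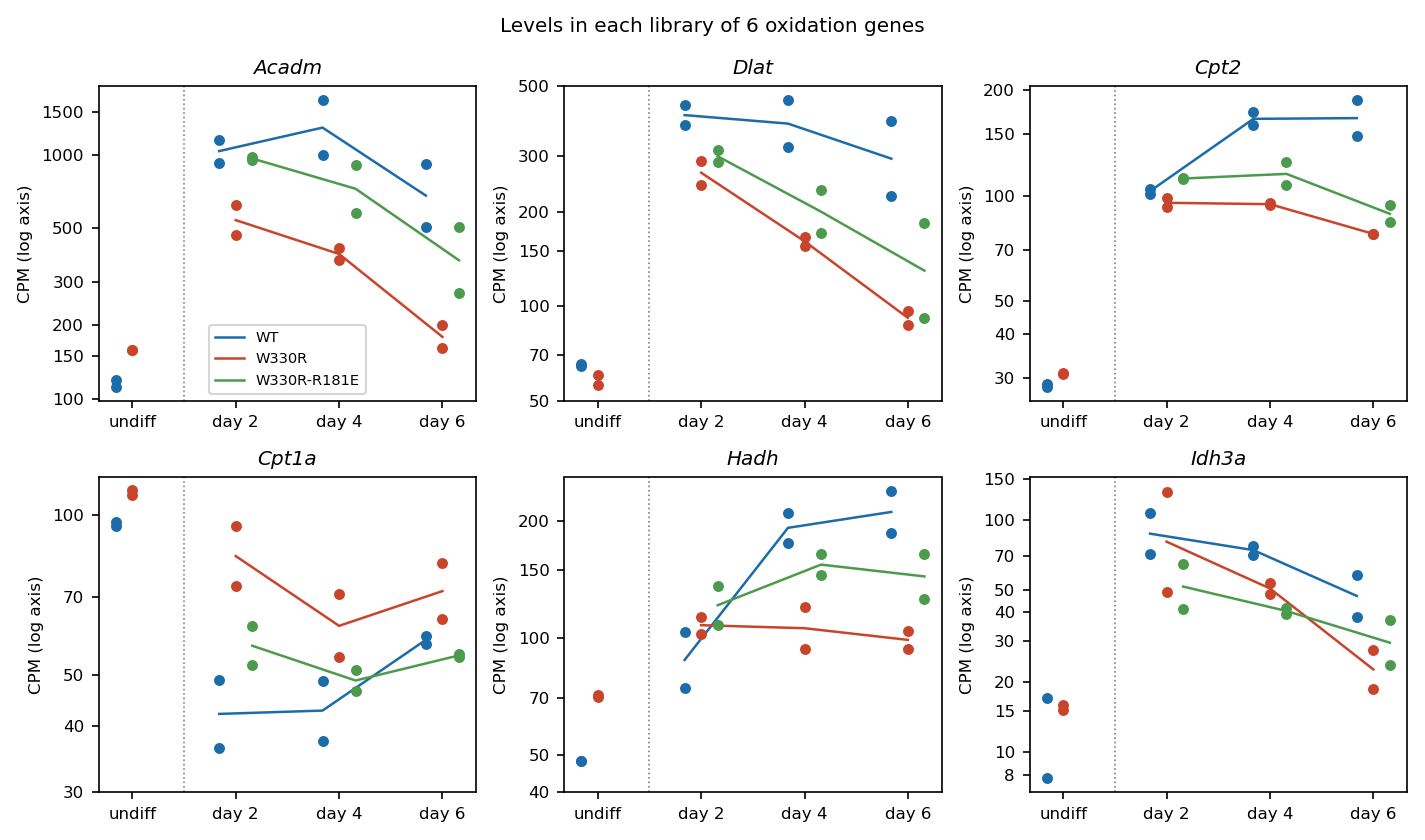
CPM on a log axis for Acadm, Dlat, Cpt2, Cpt1a, Hadh and Idh3a in every library (points), with lines through the geometric means of days 2 to 6 for each genotype; the dotted line parts undiff libraries from the rest. The WT lines of Cpt2 and Hadh rise after day 2, the W330R lines of Acadm and Dlat fall, and Cpt1a is higher in W330R than in WT on each day.

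From day 2 to day 6 within the mutants, the called members fell. In W330R, 16 of the 37 genes fell and none rose, where 25% of all genes were called, with a median log2 fold change of -0.50. The largest falls were of Idh3a (-1.97, SE 0.44, edgeR adjusted p = 0.00546), Acadm (-1.60, SE 0.34, edgeR adjusted p = 0.00411) and Dlat (-1.54, SE 0.30, edgeR adjusted p = 0.00237). Idh3a had 132 and 49.1 CPM on day 2 and 18.8 and 27.5 CPM on day 6, and its day 2 libraries lay so far apart that its fall from replicate 2 of that day would be smaller than that of Acadm. Dlat had 290 and 244 CPM on day 2, 156 and 166 CPM on day 4 and 96.5 and 87.4 CPM on day 6, while in WT it had 377 and 436, then 321 and 452, then 224 and 388 CPM. The W330R values of each day lay below those of the day before, which the WT values did not. The W330R count was 4 without W330R day 2 replicate 1, 8 without W330R day 6 replicate 1 and 6 without W330R day 6 replicate 2.

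In W330R-R181E, 7 of the 37 genes fell and none rose, where 23.2% of all genes were called, a larger share than among the members, with a median of -0.33. With the replicate block 12 fell. The 3 with the largest falls were Acadm (-1.32, SE 0.34, edgeR adjusted p = 0.0131), Dlat (-1.13, SE 0.30, edgeR adjusted p = 0.0148) and Hsd17b10 (-0.90, SE 0.16, edgeR adjusted p = 0.00167). Hsd17b10 had 149 and 155 CPM on day 2 and 76.2 and 87.4 CPM on day 6, and fell in all 3 genotypes. The count was 1 without W330R-R181E day 2 replicate 2 or W330R-R181E day 6 replicate 1. By steps, W330R had 3 genes lower on day 4 against day 2 (8.11%), below the 12.4% of all genes called. That count was 0 or 1 without any 1 of the W330R libraries of those days and 6 with the replicate block.

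From day 4 to day 6 edgeR called none in W330R (6 at an unadjusted p under 0.05; DESeq2 called 1), where 0% of all genes were called. In W330R-R181E it called none on day 4 against day 2 (3 at an unadjusted p under 0.05) or day 6 against day 4 (4), where 10.7% and 0.0207% of all genes were called, and DESeq2 called none there.

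A test of the difference between genotypes in the change from day 2 to day 6 passed for Cpt2 only. In W330R against WT it was -1.0 (SE 0.16, edgeR adjusted p = 0.0305), where 0.0895% of all genes were called, and in W330R-R181E against WT, which shares the WT libraries, -1.04 (SE 0.16, edgeR adjusted p = 0.049), where 0.0413% were. Cpt2 had 92.4 and 98.3 CPM on day 2 and 77.5 and 77.8 CPM on day 6 in W330R, and 112 and 111 CPM and then 83.8 and 93.7 CPM in W330R-R181E. WT rose between these days and neither mutant did (W330R -0.30, adjusted p = 0.077 by edgeR; W330R-R181E -0.33, adjusted p = 0.0521 by edgeR). The differences were below 0 for all 36 genes in W330R against WT, with a median of -0.78, and for 34 in W330R-R181E against WT, with a median of -0.56.

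These Cpt2 calls rested on single libraries. In W330R against WT the count was 2 without WT day 6 replicate 1 and 0 without any 1 of the other 7 libraries, and DESeq2 called 5. In W330R-R181E against WT it was 0 without any 1 of the 8 libraries but WT day 6 replicate 1. Between W330R-R181E and W330R edgeR called none of the 37, with none at an unadjusted p under 0.05, where 0% of all genes were called.

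Other genes of the same metabolism were lower in W330R as well, beside 29% of all genes called over days 2 to 6 (14.8% lower, 14.3% higher). Of 34 further mitochondrial oxidation enzymes, 23 were lower and 1 higher than in WT over days 2 to 6, with a median log2 fold change of -0.67, led by Acsl1 (-2.17), which activates fatty acids to acyl-CoA, and Bdh1 (-1.89), a ketone body enzyme. Of 16 genes of peroxisomal beta-oxidation, 9 were lower and none higher, with a median of -0.65, led by Ehhadh (-1.91) and Amacr (-1.57). Of 12 genes of the outer membrane and protein import, 11 were lower, with a median of -0.47, led by Hspa9 (-1.25) and Hspd1 (-0.84), both matrix chaperones. Unlike the members, their sum was already lower in undiff W330R cells, at 2529 and 2492 CPM against 3198 and 3315 CPM in WT. The members summed there to 3597 and 3578 CPM in W330R and 3298 and 3348 CPM in WT.

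Of 24 regulators of the pathway, 12 were lower and 4 higher, where 29% of all genes were called (14.8% lower, 14.3% higher). Ppargc1a, a coactivator of mitochondrial genes, had 9.36 and 6.15 CPM on day 2 in WT, 1.44 and 2.55 CPM in W330R and 6.40 and 4.61 CPM in W330R-R181E, and over days 2 to 6 was lower in W330R than in WT by 1.19 on the log2 scale (SE 0.26, edgeR adjusted p = 0.00406) and higher in W330R-R181E than in W330R by 1.11 (SE 0.26, edgeR adjusted p = 0.0102). Ppargc1b, a related coactivator, was at -1.86. Acacb, which makes the malonyl-CoA that inhibits carnitine palmitoyltransferase 1, was at -1.31 (SE 0.19, edgeR adjusted p = 2.95e-04). Pdk4, a kinase that switches pyruvate dehydrogenase off, had 339 and 277 CPM on day 2 in WT and 582 and 492 CPM in W330R and was higher by 0.63 (SE 0.16, edgeR adjusted p = 0.00977), as were Esrrg (1.86), an oestrogen-related receptor, and Pdp1 (0.65), a phosphatase that switches the same complex on. Ppara had at most 0.669 CPM in any library.

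Markers of adipocytes were lower in W330R as well. From day 2 to day 6 their mean sum rose more than that of the members in WT, and both sums fell in both mutants. Of 12 adipocyte markers, 10 were lower in W330R and none higher over days 2 to 6, where 29% of all genes were called. Their median log2 fold change was -1.27, and none of the 12 was at or under 3 counts in every library. Their summed level on day 6 was 6656 and 12420 CPM in WT, 1987 and 2162 CPM in W330R and 2344 and 3888 CPM in W330R-R181E. The summed level of the 37 members was 8056 and 11486 CPM, 4797 and 4534 CPM, and 5078 and 6805 CPM in the same libraries. In undiff cells the markers summed to 87.1 to 96.3 CPM and the members to 3298 to 3597 CPM. In WT the mean sum of the markers was 5177, 7973 and 9538 CPM on days 2, 4 and 6. That of the members was 9600, 11226 and 9771 CPM. In W330R these means were 3475, 2885 and 2074 CPM for markers and 7575, 5882 and 4666 CPM for members. In W330R-R181E they were 5324, 4305 and 3116 CPM for markers and 8363, 7253 and 5942 CPM for members. In these bulk libraries fewer cells of a type and less RNA per cell cannot be told apart, and the part of the adipocyte markers in the members' differences was not tested.

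**Figure D5:**
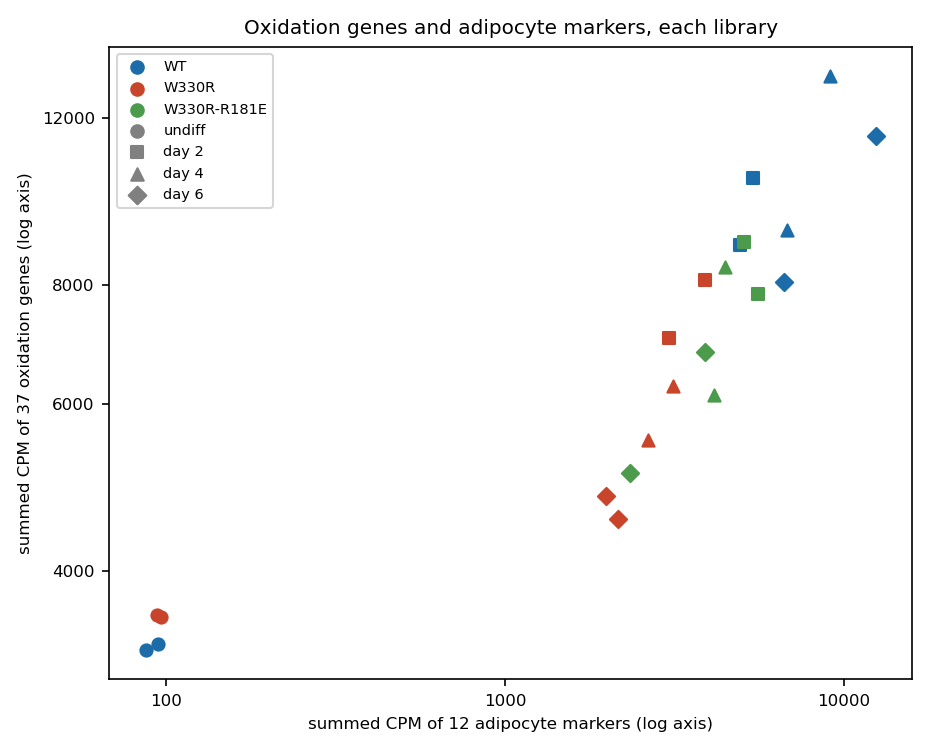
Summed CPM of the 37 genes against summed CPM of 12 adipocyte markers, both on log axes, 1 point per library, coloured by genotype and shaped by stage. The undiff libraries sit at the lower left, the 6 W330R libraries of days 2 to 6 at 1987 to 3903 CPM of markers, and the 6 WT ones at 4945 to 12420.

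Markers of other cell types are set against the 29% of all genes called in this comparison. Of 8 mesenchymal stromal markers tested, 4 were higher in W330R and none lower, led by Thy1 (3.42) and Eng (1.09), with 1 of the 9 listed at or under 3 counts in every library. The 9 summed to 2758 to 10753 CPM in WT and 2852 to 11516 CPM in W330R over days 2 to 6. Of 7 osteoblast and chondrocyte markers tested, Alpl (1.69) and Runx2 (0.47) were higher in W330R and Acan (-5.94) lower. The sum of all 10 split the WT replicates, at 979 and 258 CPM on day 2 and 2212 and 499 CPM on day 6, and reached 5268 and 1619 CPM in W330R-R181E on day 6, whereas it was 833 and 871 CPM in W330R. Of 6 muscle markers tested 1 was lower (Des, -1.27), of 4 blood and endothelial markers 1 was higher (Tek, 1.68) and of 2 epithelial markers 1 was higher (Cdh1, 1.67). Muscle markers summed to 10.2 to 533 CPM in WT and 30.6 to 635 CPM in W330R over those days, blood and endothelial markers to 18.1 CPM at most, and epithelial markers to 2.71 CPM at most, with 4 of 11, 3 of 10 and 3 of 6 genes at or under 3 counts in every library. The part of these cell types in the members' differences was not tested.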

How the data were processed

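The authors deposited 1 table of whole-number read counts per gene, not normalized, for 22 libraries of total RNA extracted with TriZol and prepared with an NEBNext Ultra II kit. The submitters' processing notes name kallisto, DESeq2 1.40 and GRCm39 without saying what each did. All columns were mapped to samples by name, leaving 0 unmapped, and groups follow the labels. Counts were filtered (filterByExpr, minimum count 10, minimum total count 15), scaled by TMM and fitted in edgeR 4.0.16 (R 4.3.3, limma 3.58.1) with 1 mean per condition over all 22 libraries, and quasi-likelihood p-values were adjusted by Benjamini-Hochberg over 14520 genes, with a threshold of 0.05. Standard errors are the fold change divided by the square root of its F statistic. CPM values carry no pseudocount, log2 CPM a prior count of 2, and fitted fold changes edgeR's default prior. The script was tested on simulated counts drawn independently, with no stage effects and no shared deviation of replicates, so such deviation was not covered. It recovered 67.7% of 198 changed genes, and 4.96% of calls were false. Library totals were 8859501 to 47453908 counts, median 19355792.

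The members and the lists were chosen with earlier results of these data known. All 37 members may be named. Values by library are given for a fixed set of members of each role and for the 3 largest called changes in each direction per averaged genotype comparison and day 6 against day 2. From other lists, Pdk4, Ppargc1a, Ppara, Acacb, Adipoq and Fabp4 may be named, with the 2 largest called changes in each direction. Alternatives were another size factor (RLE), no filter, DESeq2 1.42.0, fits of days 2 to 6 or of the compared conditions alone, leaving out each library, and the replicate number as a block. Putting Eci1 back into medians and the background of the undiff libraries fitted alone were added after seeing the data. Same-numbered libraries of the same day deviated together in 9 of 10 pairs (correlation over 0.1; the undiff pair was at 0.0298), and in 27 of 36 pairs over days 2 to 6. Sequence uniqueness used GENCODE transcripts of GRCm38, and promoters came from RefSeq windows of GRCm38.p6.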

Additional observations from a re-analysis of the deposited data

Results flagged for a closer look

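The change of Cpt2 from day 2 to day 6 differed between genotypes by a test of the difference itself: it was lower in W330R than in WT by -1.0 on the log2 scale (SE 0.16, edgeR adjusted p = 0.0305) and in W330R-R181E than in WT by -1.04 (SE 0.16, edgeR adjusted p = 0.049), and both comparisons use the same WT libraries. With the replicate number as a block the adjusted p was 0.0137 and 0.0294 by edgeR. Without the filter on low counts Cpt2 was not called in either.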

How the results depend on the processing

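Counts of members called are given by setting. With the replicate block, W330R-R181E against W330R on day 2 had 1, W330R-R181E against WT on day 6 had 17, WT day 6 against day 2 had 8, W330R day 4 against day 2 had 6, W330R-R181E day 6 against day 2 had 12, and the genotype difference of day 2 against undiff had 1; other counts stayed within 1.5 times. DESeq2 gave 31 for W330R against WT on day 4, 2 for W330R-R181E against W330R on day 6, 2 and 15 for W330R-R181E against WT on days 4 and 6, 7 for WT day 6 against day 2, 7 for WT day 4 against day 2, 1 for WT and 1 for W330R day 6 against day 4, and 5 for the W330R and WT difference of day 6 against day 2. RLE scaling and no filter each gave 1 for W330R day 4 against day 2 and 0 for the W330R-R181E and WT difference.

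Fitted on days 2 to 6 alone, W330R-R181E against WT had 12 over all days and 1 on day 6, W330R against WT had 7 on day 4, W330R day 4 against day 2 had 0, and both differences from WT had 0. Fitted on the compared conditions alone, W330R-R181E against WT had 1 and, on day 6, 0. W330R against WT had 17 in undiff cells and 0 on days 2, 4 and 6, WT had 2 for day 6 and 0 for day 4 against day 2, W330R had 1 for day 4 against day 2, W330R-R181E had 0 for day 6 against day 2, both differences from WT had 0, and that of day 2 against undiff had 1. The cause was not tested.

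Leaving out 1 library gave 29 to 34 for W330R against WT over days 2 to 6, 0 to 1 on day 2, 0 to 25 on day 4 and 3 to 28 on day 6. W330R-R181E against W330R ran from 4 to 10, and against WT from 6 to 28 and, on day 6, from 0 to 9. Day 6 against day 2 ran from 4 to 6 in WT, 4 to 13 in W330R and 1 to 8 in W330R-R181E, and day 4 against day 2 from 1 to 5 in WT and 0 to 1 in W330R. Day 2 against undiff ran from 31 to 33 in WT and 21 to 27 in W330R, and the differences of day 6 against day 2 from 0 to 2 in W330R and 0 to 1 in W330R-R181E against WT. The median log2 fold change for WT day 4 against day 2, 0.30, ran from -0.0054 without WT day 4 replicate 2 to 0.51 without WT day 4 replicate 1.

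With 2 libraries per condition and no statement that they are separate cultures, calls on single days rest on the spread shared over all conditions.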

Other observations

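Counts for the other lists are given beside the 17.2% of all genes called between W330R-R181E and W330R over days 2 to 6. W330R-R181E had 9 higher and 1 lower than W330R of 34 further mitochondrial oxidation enzymes (median log2 fold change 0.30), 2 higher of 24 regulators (8.33%, below the share of all genes; median 0.10), 4 higher and 1 lower of 16 peroxisomal genes (0.24), 4 higher of 12 outer membrane and import genes (0.33) and 6 higher and 1 lower of 12 adipocyte markers (0.53). Acsl1 was at 0.82. Of the stromal markers 3 of 8 were lower (median -0.65), of 7 osteoblast and chondrocyte markers 2 were higher and 2 lower, of 6 muscle markers 1 was higher (16.7%, also below that share), and of 4 blood and endothelial markers 1 was lower.

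Against WT, where 9.57% of all genes were called, W330R-R181E had 9 lower of the 34 enzymes, 5 lower and 2 higher of the 24 regulators, 2 lower of the 16 peroxisomal genes, 1 lower of the 12 import genes and 7 lower of the 12 adipocyte markers, with medians of -0.33, -0.16, -0.40, -0.20 and -1.13. Crat, carnitine acetyltransferase, was at -1.21. Of the stromal, osteoblast and chondrocyte, muscle, blood and endothelial, and epithelial markers edgeR called 0.

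The log2 ratio of Hadha to Hadhb counts was 0.93 and 0.62 in WT day 6 libraries, 1.34 and 1.24 in those of W330R and 1.29 and 0.91 in those of W330R-R181E. That of Idh2 to Idh3a was 2.84 and 2.47, 3.88 and 3.27, and 3.34 and 2.83 in the same order. For both, the W330R libraries of day 6 lay above those of WT, whereas on day 2 the genotypes overlapped (Hadha to Hadhb 0.83 and 1.11 in WT, 0.81 and 1.26 in W330R; Idh2 to Idh3a 0.64 and 1.85, 0.71 and 2.46).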
